A study of Caenorhabditis elegans with 2 samples.

Results

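Peaks of NHR-47 on the X chromosome of Caenorhabditis elegans whose summits lay outside promoters and exons numbered 745, of 1100 peaks on X and another 4257 on the autosomes. A summit, the position of highest signal within a peak, was counted when it fell in no exon of a protein-coding gene and in no promoter window, which reached 500 bp upstream and 200 bp downstream from where the gene's annotation starts (its 5′ end). The rule used position alone, not signal, but among peaks that had already passed the authors' reproducibility threshold. The 745 made up 67.7% of the X peaks, with a 95% Wilson interval of 64.9 to 70.4% that covers counting error only. They were 13.9% of all peaks of the thresholded list. The same rule on the autosomes took 2298 peaks, or 54% (52.5 to 55.5%). A further 312 X peaks had their summit in a promoter window and 43 in an exon.

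The peaks come from ChIP-seq, in which DNA bound by a chosen protein is pulled down with an antibody and sequenced. Whole hermaphrodite larvae of the L1 stage, strain OP481, were taken 6 h after synchronization, for which bleached animals had been starved at the L1 stage. The strain has the genotype unc-119(tm4063) III; wgIs481, so that all animals carried an unc-119 mutation and a transgene that adds a C-terminal GFP-FLAG tag to NHR-47. The immunoprecipitation used an anti-GFP antibody according to the description, while another label names the antibody nhr-47. There were 2 biological replicates of 1 group and no second condition, so no test over samples was possible and every comparison below is a description of these 2 libraries. Tagged protein in whole larvae gives 1 value over all tissues, and the labels do not name the promoter that drives the transgene.

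Nuclear hormone receptors are transcription factors with a zinc-finger DNA-binding domain and, in most members, a ligand-binding domain, and the nematode has many more of them than most animals. In hermaphrodites, a condensin-based dosage compensation complex loads onto the X chromosome at recruitment sites that hold a GC-rich motif named MEX, and then lowers X transcription. The gene xol-1 is the X-linked switch that keeps this complex off X in males. Transfer RNA genes, which are numerous on the nematode X, are transcribed by RNA polymerase III from promoter elements inside the gene. These are background facts on X, and none was measured here.

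The summit sequences of the 6 strongest members, of the member upstream of xol-1 and of the strongest member beside a tRNA gene are shown because the signal results turn on them. Each runs 5′ to 3′ on the + strand of WBcel235 (ce11), from the reference genome, and covers the summit with 50 bp on each side. The name is that of the protein-coding gene whose 5′ end is nearest. Capitals mark GCGNAGG on either strand, which is the MEX core GCGCAGG with any base at its position 4. The looser form was chosen after the sequences had been seen.
W02H3.3, chrX:11094151-11094251: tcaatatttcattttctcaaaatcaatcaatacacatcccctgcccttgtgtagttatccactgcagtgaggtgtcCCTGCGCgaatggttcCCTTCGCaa
F20B6.9, chrX:4209227-4209327: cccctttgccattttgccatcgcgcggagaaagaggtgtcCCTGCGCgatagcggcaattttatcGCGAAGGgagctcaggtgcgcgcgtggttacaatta
K02D3.1, chrX:13700816-13700916: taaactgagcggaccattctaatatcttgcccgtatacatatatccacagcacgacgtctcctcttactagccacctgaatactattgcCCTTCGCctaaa
cest-16, chrX:6296512-6296612: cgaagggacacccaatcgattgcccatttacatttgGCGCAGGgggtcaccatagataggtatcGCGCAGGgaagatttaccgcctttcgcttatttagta
ZK899.6, chrX:9465807-9465907: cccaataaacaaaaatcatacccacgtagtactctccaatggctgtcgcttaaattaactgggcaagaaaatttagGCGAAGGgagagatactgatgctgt
nspc-17, chrX:14525859-14525959: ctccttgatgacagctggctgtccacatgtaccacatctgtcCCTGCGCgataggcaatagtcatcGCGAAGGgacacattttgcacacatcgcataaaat
xol-1, chrX:8036388-8036488: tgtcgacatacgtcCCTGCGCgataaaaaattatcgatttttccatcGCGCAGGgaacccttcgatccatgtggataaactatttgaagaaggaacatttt
M02F4.2, chrX:3036055-3036155: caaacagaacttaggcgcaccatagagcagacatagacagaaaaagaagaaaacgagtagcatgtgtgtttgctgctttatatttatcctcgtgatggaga
In the windows of W02H3.3, F20B6.9, cest-16, nspc-17 and xol-1 the core itself occurred, and cest-16 and xol-1 held it 2 times each. The windows of K02D3.1 and ZK899.6 held only the form with A at position 4. The window of M02F4.2, beside the tRNA gene WBGene00023111, held neither.

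Signal is the peak caller's value for a region, as deposited by the authors. It rises with depth, which is unknown here because no read totals were used. Over the 745 members the pooled signal ran from 77.2 to 3093, with a median of 136 and quartiles of 96.4 and 248. The median was 163 for X promoter peaks and 135 for autosomal peaks outside promoters and exons. Thus the typical member was weaker than the typical X promoter peak and close to its autosomal counterpart, and the 3 ranges overlapped almost entirely.

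The replicates gave the same order of the 3 medians as the pooled list. Replicate signals were divided by that replicate's median over all peaks found in both, which was 66.8 in replicate 1 and 92.2 in replicate 2. On this scale the median member had 0.904 in replicate 1 and 0.893 in replicate 2, or 0.899 ± 0.00748 (SD, n = 2). X promoter peaks had 1.07 and 0.999, and autosomal peaks outside promoters and exons had 0.887 and 0.877. The gap to X promoters was larger than the spread between replicates. The gap to the autosomal peaks had the same direction in both replicates but was small, and with a promoter window of 300 bp upstream to 100 bp downstream the ratio of the pooled medians, 1.01, turned to 0.964. At the 95th percentile members reached 4.73 and 4.79, X promoter peaks 4.74 and 4.78, and the autosomal peaks outside promoters and exons 4.14 and 4.02.

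**Figure D1:**
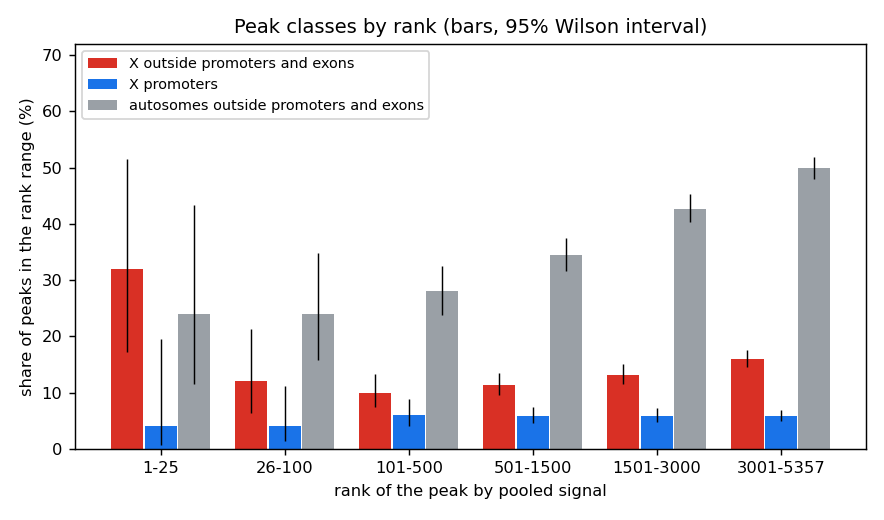
Share of peaks in each range of pooled rank (x axis) that were X peaks outside promoters and exons, X promoter peaks or autosomal peaks outside promoters and exons (y axis, %), with 95% Wilson intervals. Members took 32% of ranks 1 to 25, 10% of the third range and 16% of the last. Autosomal promoter peaks, 40% of ranks 1 to 25, are not drawn.

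Members were found at both ends of the strength ranking. They supplied 8 of the 25 strongest peaks in the series, against 10 autosomal promoter peaks, 6 autosomal peaks outside promoters and exons and 1 X promoter peak. Among the 50 strongest, 13 were members, against 23 autosomal promoter peaks, 11 autosomal peaks outside promoters and exons and 1 X promoter peak. The share then fell to 10% (7.43 to 13.3%) of the peaks ranked after 100 and up to 500, and stood at 16% (14.5 to 17.5%) of those ranked after 3000, beside 13.9% in the list as a whole. Within X, 66 of the 100 strongest peaks were members, close to their share of 67.7% of all X peaks.

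The share of such regions that passed the threshold was close to that of autosomal regions of the same kind. Of all 30000 pooled regions, 17.9% passed the irreproducible discovery rate (IDR) threshold. Among X regions outside promoters and exons 745 of 4676 passed, which is 15.9% (14.9 to 17%). It was 31.3% (28.5 to 34.2%) for X promoter regions and 16.2% (15.6 to 16.9%) for autosomal regions outside promoters and exons. The weakest members lay just inside the cutoff with 77.16 beside cah-3, which encodes a carbonic anhydrase homologue, and 77.19 beside T25B6.4. The nearest excluded regions of the same kind had 76.93 beside F38E9.1 and 76.89 beside T14B1.1.

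Nearly all members were seen in both replicates. The IDR threshold keeps regions that agree between replicates, so the agreement of members is not an independent check. A region of replicate 1 overlapped 744 of them and a region of replicate 2 overlapped 743, and 742 had both. The scaled signals lay within 2-fold of each other for 701 members, or 94.5%, compared with 94.9% for the whole series. Across the 742 members Spearman's rho between replicates was 0.81, given as a description, since members share their 2 libraries. The log2 ratio of replicate 2 to replicate 1 had a median of 0.03 and an SD of 0.52. Replicate summits lay a median of 20 bp apart.

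High ranks were shared by most members, which the same threshold favours. Of the 745, 562 (75.4%) overlapped a top region of both replicates, meaning one ranked no lower than the number of peaks in the thresholded list. This was the case for 78.5% of X promoter peaks, 75.5% of autosomal peaks outside promoters and exons and 78.6% of all peaks. Median ranks of members were 3066 in replicate 1 and 3016 in replicate 2. The members not found in both were T04G9.6 and C02B4.3, with scaled signals of 1.37 and 1.52 in replicate 1, and atg-2, an autophagy gene, with 1.29 in replicate 2.

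**Figure D2:**
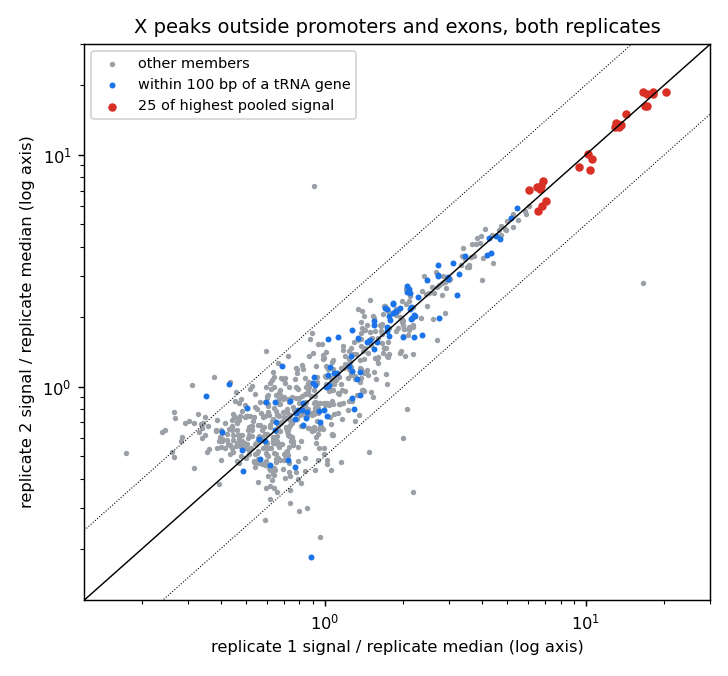
Scaled signal of the 742 members found in both replicates, replicate 1 on the x axis and replicate 2 on the y axis, both logarithmic; the solid line marks equality and the dotted lines a 2-fold difference. The 25 strongest members sit close to the line of equality. Among the other members, those within 100 bp of a tRNA gene reach 5.46 in replicate 1 and 5.88 in replicate 2.

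A few members differed strongly between replicates. The largest excess in replicate 2 was at a second summit in the strong interval upstream of sma-9, with 7.29 in replicate 2 and 0.912 in replicate 1 (more than 2-fold apart). That replicate 2 region is also the one matched to the main sma-9 summit, so the ratio compares a shared region with a separate one. The same holds, with a shared replicate 1 region, for the second summit beside ZK899.6, with 2.79 in replicate 2 and 16.6 in replicate 1 (log2 ratio -2.57), and for the weaker of the pair beside pqn-39, with 0.351 and 2.17 (log2 ratio -2.63). In all, 16 members shared a replicate region with another member.

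Other members differed without sharing a replicate region with another member. The member beside C25F6.1 had 0.185 in replicate 2 and 0.884 in replicate 1, and that beside ifta-1, an intraflagellar transport gene, had 0.224 and 0.959, in the same order. In the other direction, nhr-45, itself a nuclear hormone receptor gene, had 1.02 in replicate 2 and 0.309 in replicate 1. The small heat shock protein gene hsp-25 had 0.515 and 0.174. These 4 were below the median member, with pooled signals of 123 or less.

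A step in signal followed the 13 strongest members. Their pooled signal ran from 2072 to 3093, and the next member, at the insulin-like peptide gene ins-39, had 1613. Another step, from 1489 at C30E1.4 to 1166 at F56C3.1, came after member 17. At or above 2072 there were 35 peaks in the series, of which 13 were members, 13 autosomal promoter peaks, 7 autosomal peaks outside promoters and exons, 1 an X promoter peak and 0 X exon peaks. That cutoff is the signal of member 13 itself, and members were 13.9% of the whole list. All 13 members lay within the top 36 regions of replicate 1 and the top 34 of replicate 2.

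The strongest member was intergenic, at chrX:11093735-11094575, and its summit was 3985 bp from the 5′ end of W02H3.3, on the downstream side. Its scaled signal was 20.3 in replicate 1 and 18.7 in replicate 2, or 19.5 ± 1.13 (SD, n = 2). It ranked number 5 and number 8 of the replicate lists. The member 1792 bp upstream of F20B6.9 (chrX:4208508-4209707) had 18.1 and 18.7, and the member 6041 bp upstream of K02D3.1 (chrX:13700498-13701211) had 18 and 18.3. These 3 did not differ beyond their spread between replicates.

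The strongest intronic member lay at chrX:6296061-6296960, in intron 7 of mom-1, a gene required for Wnt secretion. The nearest 5′ end was that of the carboxylesterase-like gene cest-16, 3380 bp away. Its scaled signal was 17.2 in replicate 1 and 18.2 in replicate 2. Beside it in rank stood ZK899.6 with 16.6 and 18.6, nspc-17 with 17.2 and 16.2, and Y41G9A.17 with 16.9 and 16.2. The last of these lay in intron 6 of its own nearest gene, at chrX:2996341-2997549, and was the widest member at 1209 bp.

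The member upstream of xol-1 stood at chrX:8035966-8036982, 4875 bp from the 5′ end, and ranked 8 among members. Its scaled signal was 14.2 in replicate 1 and 15 in replicate 2 (14.6 ± 0.547, SD, n = 2). It took rank 26 of replicate 1 and rank 19 of replicate 2. Behind it, F19H6.5, F22H10.2, F55G7.5, gtr-1 and T27A8.7 had means between 13 and 13.5, with T27A8.7 the lowest of these 5 in replicate 1 (12.9) and in replicate 2 (13.1).

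Members 14 to 25 covered a wider range. The insulin-like peptide gene ins-39 had 10.2 in replicate 1 and 10.1 in replicate 2, and the F-box gene fbxb-58 had 10.6 and 9.57. The 14-3-3 protein gene ftt-2, which had its member 652 bp upstream, had 9.4 and 8.84, and C30E1.4 had 10.4 and 8.56. The zinc-finger gene sma-9, which acts in body size control downstream of a BMP-like signal, had 6.74 and 7.29. The collagen gene col-185 had 6.51 and 7.23, and the basic helix-loop-helix gene hlh-29 had 6.04 and 7.01. F56C3.1 had 6.88 and 7.7, and W01H2.2 had 6.67 and 7.11. The member in intron 1 of F09A5.3 had 7.01 and 6.28. The member in intron 25 of ZK1193.2, nearest to the 5′ end of R04A9.1, had 6.82 and 6. Last came M02F4.2, with 6.58 and 5.71. Over all 25, the log2 ratio of replicate 2 to replicate 1 stayed between -0.28 and 0.22, and 21 were intergenic.

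**Figure D3:**
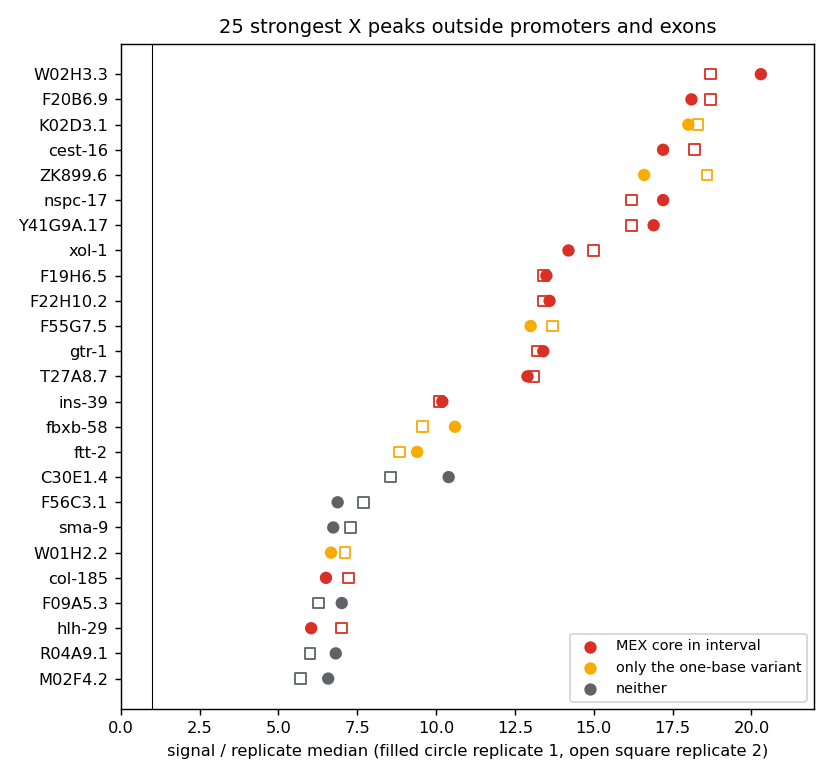
Scaled signal of the 25 strongest members in replicate 1 (filled circles) and replicate 2 (open squares), named after the nearest protein-coding 5′ end; colours give whether the whole interval holds the MEX core, only its variant with another base at position 4, or neither. Values run from 20.3 to 5.71, and each of the top 13 intervals holds the core or the variant.

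The MEX core GCGCAGG was concentrated in the strongest members. It occurred on either strand within 50 bp of the summit, the window used for all motifs, in 21 of 745 members (2.82%, 1.85 to 4.27%), against 1.23% of all peaks in the series. Among the 25 strongest members it was in 11 windows, or 44% (26.7 to 62.9%). Members ranked 26 to 100 had it in 3 of 75 windows (4%), and the weaker members in 7 of 645 (1.09%). It was present in 1.6% of X promoter windows and 0.957% of autosomal windows outside promoters and exons. The 25 strongest peaks of each of those sets held it in 0 windows, which allows a share of up to 12%.

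The core was as common on X as elsewhere in the genome. Of non-overlapping tiles of the window's length, 0.184% held it on X and 0.187% on the autosomes. X regions outside promoters and exons that fell below the IDR threshold had it in 9 of 3931 windows (0.229%). Of 357 occurrences on X, 42 (11.8%) lay inside a member's interval and 20 inside an interval of the 25 strongest, while member intervals covered 1.52% of X. A further 9 lay in other X peaks.

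The 21 members with a core were strong. Their median pooled signal was 1054, against 134 for the 724 members without one, and their median scaled signals were 6.04 in replicate 1 and 7.01 in replicate 2. Of the 21, 19 (90.5%) overlapped a top region of both replicates, against 75% of those without. That share depends on rank and so on signal, and is not a separate measure of agreement. The nearest core lay a median of 15 bp from the summit, and 18 of the 21 were intergenic. Weak members also carried it: the member in intron 1 of T14B1.1 had 0.92 and 0.435, and npr-10, a neuropeptide receptor gene whose member also lay beside a tRNA gene, had 0.404 and 0.639.

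Over whole intervals, which are wider than that window, 13 of the 25 strongest members held the core and 7 held it at least 2 times. Of those 7, 2 had it on opposite strands, 2 had both copies on the + strand and 3 had both on the − strand. At xol-1 the summit lay on 1 core, with a second in the opposite direction 33 bp to its left. Among the 13 strongest, 10 intervals held the core and all 13 held GCGNAGG. Of all members 37 (4.97%) had an interval that held the core and 107 (14.4%) one that held GCGNAGG. An interval shared by members was counted for each of them. Strong peaks have wider intervals, with a median of 730 bp for the 25 strongest and 420 bp for the others, and the part of width in these interval counts was not tested. The window counts above do not depend on width.

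**Figure D4:**
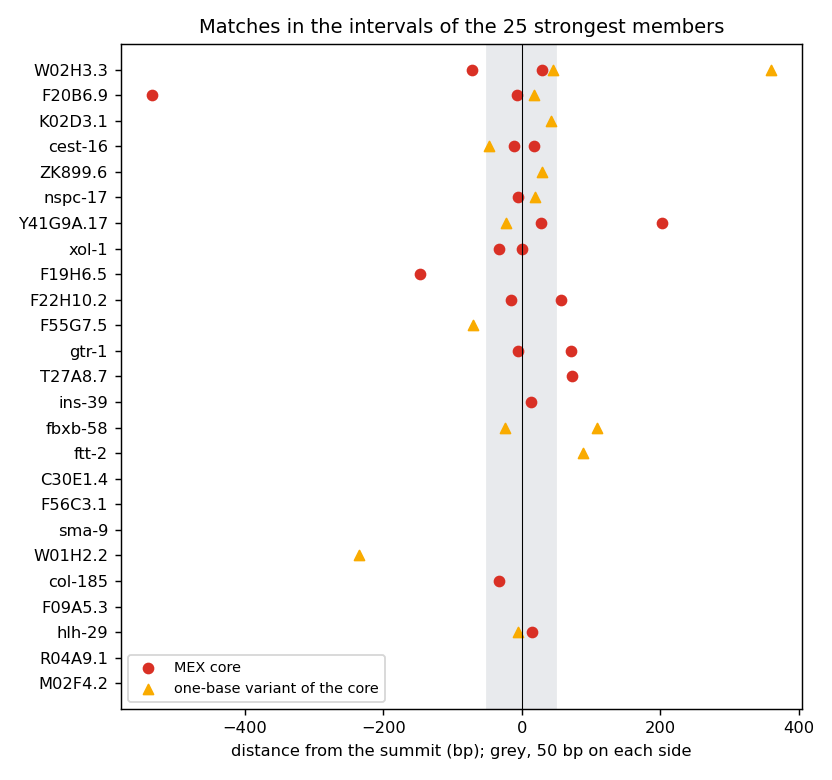
Distance in bp from the summit (x axis) of each MEX core (circles) and each variant with another base at position 4 (triangles) inside the intervals of the 25 strongest members, strongest at the top; the grey band is the window of 50 bp on each side. Most matches lie within the band, and C30E1.4, F56C3.1, sma-9, F09A5.3, R04A9.1 and M02F4.2 have none.

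The bases beside the core were also alike in the strongest members. The 20 cores in the intervals of the 25 strongest were read on the strand that spells GCGCAGG. The base 2 places before the core was T in 18 of 20, against 35.9% of all 357 cores on X. The base just before it was C in 17 of 20, against 26.6%, and the base just after it was G in 17 of 20, against 22.7%. An A followed that G position in 15 of 20, against 37%. The 8-base form GCGCAGGG occurred 81 times on X, with 28 (34.6%) in member intervals and 17 in those of the 25 strongest. These counts were made after the sequences had been seen, and neighbouring cores in 1 interval are not independent.

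Other bases at position 4 of the core were distributed differently. GCGAAGG lay 35 times in member intervals, 5.3% of its 661 occurrences on X, with 10 in the 25 strongest. GCGGAGG lay 26 times in member intervals (3.7% of 702), with 4 in the 25 strongest. GCGTAGG lay 14 times (2.75% of 510), with 0 in the 25 strongest. Within 50 bp of the summit GCGNAGG was held by 42 members (5.64%), against 4.49% of X promoter peaks, 2.57% of autosomal peaks outside promoters and exons and 1.17% of X tiles.

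Sites of other factor families were less concentrated in the strong members. The hexamer AGGTCA, bound by many nuclear receptors, was in 3.49% of member windows, 3.21% of X promoter windows, 2.83% of autosomal windows outside promoters and exons and 2.64% of X tiles. It was in 0 of the 25 strongest, which allows a share of up to 12% and so does not set them apart from all members. AGTGCA, the type of site that the nuclear receptor DAF-12 binds, was in 4.03% of members, 8.65% of X promoters, 5.53% of the autosomal set and 4.22% of X tiles. The GATA factor site TGATAA was in 7.25% of members, 4.17% of X promoters, 7.18% of the autosomal set and 9.96% of X tiles. All motifs were searched on both strands.

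Some other sequences were more common in member windows than in tiles. The repeat GAGAGAG was in 9.53% of members, 12.5% of X promoters, 15.2% of the autosomal set and 1.25% of X tiles. It was in 1 of the 25 strongest members but in 14 of the 75 members ranked 26 to 100 (18.7%, 11.5 to 28.9%). The E box CACGTG, bound by basic helix-loop-helix factors, was in 6.71% of members, 4.17% of X promoters, 6.53% of the autosomal set and 1.32% of X tiles. The forkhead site GTAAACA was in 2.82%, 2.88%, 1.87% and 1.55%, in that order of sets, and the AP-1 site TGACTCA in 1.74%, 0.641%, 1.35% and 1.09%. A match is a stretch of letters in the window and does not show that the factor binds there.

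The strongest member with each of these sites is shown in 41 bp of the + strand of WBcel235, with the site in capitals on whichever strand it lies, so that the sites can be compared in context. Their pooled signals were 871, 907, 1589, 1102, 1054, 636 and 529 in the order given.
T24D8.6, AGGTCA, chrX:2364910-2364950: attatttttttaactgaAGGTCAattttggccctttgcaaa
dct-1, AGTGCA, chrX:7951731-7951771: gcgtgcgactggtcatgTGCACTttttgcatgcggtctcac
fbxb-58, TGATAA, chrX:1627126-1627166: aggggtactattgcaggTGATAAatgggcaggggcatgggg
W01H2.2, GAGAGAG, chrX:4223037-4223077: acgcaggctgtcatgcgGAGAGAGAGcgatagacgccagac
F09A5.3, CACGTG, chrX:13145345-13145385: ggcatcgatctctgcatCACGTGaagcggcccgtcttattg
F09E10.1, GTAAACA, chrX:1504923-1504963: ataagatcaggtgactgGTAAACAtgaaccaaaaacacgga
cebp-1, TGACTCA, chrX:1454570-1454610: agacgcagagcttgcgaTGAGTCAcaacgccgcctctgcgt

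Counted without a fixed motif over all members, the 6-base sequence of highest ratio was one that overlaps the MEX core. CCTGCG, read on either strand, was in 6.04% of member windows and in 0.805% of windows of the same size 300 bp to either side, a log2 ratio of 2.81. It was in 14 of the 25 strongest members and in 4.22% of the autosomal windows outside promoters and exons. It overlaps the MEX core, whose reverse complement is CCTGCGC, as does CTGCGC (6.71% of members, 11 of the 25 strongest, log2 ratio 2.41). CTGCGC was in 5.09% of those autosomal windows. The others of the first 8, with their log2 ratios, were CGGCCA (2.53), GCGGCC (2.49), ACGCGC (2.45), CGCGCG (2.44), ACGCCG (2.42) and CGCGTC (2.38). Each of these was in at most 1 of the 25 strongest. In members away from tRNA genes, CGCGCG had the highest log2 ratio (2.75), ahead of CCTGCG (2.64). There CCTTCG, the matching end of the form with A at position 4, was in 5.95% of windows and 10 of the 25 strongest. GACGCA was in 9.23% of those windows and in 14.4% of the autosomal windows outside promoters and exons. These sequences are GC-rich, and the member windows had a GC content of 44.7%.

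Transfer RNA genes lay beside many members. Of 745, 106 (14.2%, 11.9 to 16.9%) had a summit within 100 bp of a tRNA gene, against 2.24% (1.09 to 4.56%) of X promoter peaks, 4.35% (3.59 to 5.26%) of autosomal peaks outside promoters and exons and 4.46% of all peaks. X carries 276 of the 634 annotated tRNA genes. Counted by gene, 104 of the 276 X tRNA genes (37.7%, 32.2 to 43.5%) had a member within 100 bp, and 100 of the 358 autosomal tRNA genes (27.9%, 23.5 to 32.8%) had an autosomal peak outside promoters and exons. Both counts leave out peaks in promoter windows and exons. With any X peak, 111 of the X tRNA genes had one, and the like count for autosomal genes was not made. Of all peaks, 239 lay within 100 bp of a tRNA gene, 113 of them on X. Many tRNA genes are near-identical copies, and how the authors treated reads that map to several places is not given in the sources used here, so signal at a single tRNA gene is uncertain.

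The summits sat at the upstream edge of the tRNA genes. Of the 106, 83 lay upstream of the annotated 5′ end, 18 inside the gene and 5 downstream. The median position was -20.5 bp, with quartiles at -28 and -4.25 bp. GGTTCGA, the core of the B box inside tRNA genes, was within 50 bp of the summit in 1.48% of all members and within 100 bp in 10.1%.

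**Figure D5:**
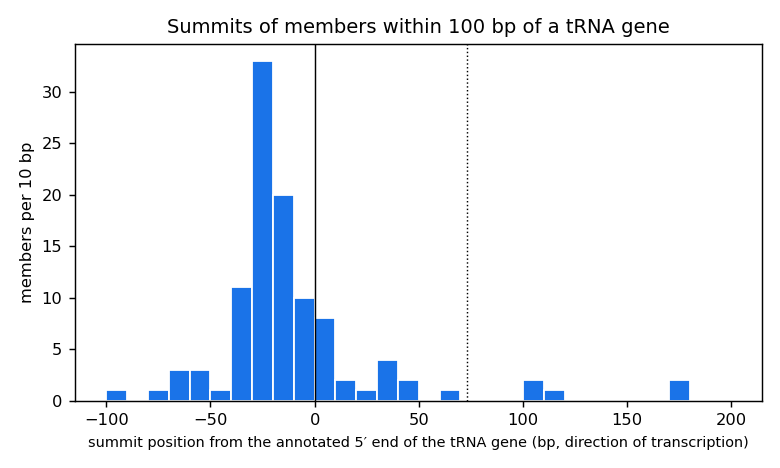
Position of the summit from the annotated 5′ end of the tRNA gene (x axis, bp, in the direction of transcription) for the 106 members within 100 bp of one, as members per 10 bp (y axis). The solid line is the 5′ end and the dotted line the median gene length of 73 bp; most summits lie just to the left of the solid line.

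Members beside tRNA genes were stronger than the rest but seldom the strongest. Their median pooled signal was 239, against 130 for the other 639 members. The median scaled signals were 1.37 and 1.58 beside tRNA genes, against 0.844 and 0.846 for the rest, in replicates 1 and 2. Of them 88.7% were at a top region of both replicates, against 73.2% of the rest, a share that also depends on signal. They were narrower, with a median of 286 bp against 420 bp. Only 1 was among the 25 strongest members and 24 were among the 100 strongest. Of the 106, 42 were in introns of protein-coding genes.

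The strongest of them lay 58 bp upstream of WBGene00023111, a tRNA gene on the − strand at chrX:3035976-3036047, with scaled signals of 6.58 and 5.71. Next came WBGene00023042, in an intron near the sulfate transporter family gene sulp-3, with 5.46 and 5.88 and a summit 48 bp upstream. WBGene00014296 and WBGene00014486 followed, with summits 63 and 65 bp upstream. These 4 summits lay farther upstream than the typical one.

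The named classes of small and long noncoding RNA genes met few members. Within 100 bp there were 3 members beside small nucleolar RNA genes (0.403%), against 3.09% of the autosomal peaks outside promoters and exons, and 1 beside a small nuclear RNA gene, M163.13, against 1.35%. There were 2 beside the microRNA gene mir-8196a and 3 beside lincRNA genes, namely linc-154, linc-142 and linc-118. The annotation's general class of noncoding RNA was met more often, by 160 members (21.5%), against 13.7% of the autosomal peaks. Some of these members also lay beside a tRNA gene, such as that at M02F4.2, and this overlap was not counted.

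By place, most members were intergenic. There were 506 between genes (67.9%, 64.5 to 71.2%) and 239 in introns (32.1%, 28.8 to 35.5%), against 42.5% (40.5 to 44.5%) in introns for the autosomal peaks outside promoters and exons. Median signals were 139 between genes and 132 in introns. Of the intronic ones, 106 were in the first intron of their gene and 133 in later ones, with medians of 130 and 134. Members in later introns were more often beside a tRNA gene, 23.3% against 10.4%.

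Intergenic members differed by the direction of the genes on either side. Between genes pointing the same way there were 269, between diverging genes 175 and between converging genes 62. Their median signals were 136, 131 and 205. The convergent ones, which have no 5′ end on either side of the gap, overlapped a top region of both replicates in 87.1% of cases, against 77% and 72%. Of the convergent ones 6 held the MEX core and 11 lay beside a tRNA gene. Of the divergent ones 1 held the core and 24 lay beside a tRNA gene. The part of these in the difference was not tested.

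Members lay at a median of 2196 bp from the nearest protein-coding 5′ end, with quartiles of 1161 and 4209 bp. Beyond 2 kb there were 404 (54.2%, 50.6 to 57.8%), close to the 52.1% (50.1 to 54.2%) of the autosomal set. The summit lay upstream of the nearest 5′ end in 430 cases and downstream in 315. Signal was somewhat lower far from a 5′ end: the median was 149 within 1 kb and 128 beyond 5 kb, where 136 members lay. From 1 to 2 kb and from 2 to 5 kb it was 140. The scaled medians in replicates 1 and 2 were 0.985 and 0.922 within 1 kb, and 0.755 and 0.799 beyond 5 kb.

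The 5 farthest members had pooled signals of 78.3 to 145, around or below the median member. The farthest was 14428 bp downstream of the 5′ end of cab-1, with scaled signals of 0.729 and 0.429. The next, 14401 bp into daf-12 in intron 3, had 0.886 and 0.912. The member in intron 2 of mbl-1, the muscleblind splicing factor gene, had 1.07 and 0.619 at 13029 bp.

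At the other end, peaks of varied signal lay within a few bp of the window's edge, on both sides. Just outside it were C07A12.7, 502 bp upstream with a pooled signal of 135, sem-5, a Ras pathway adaptor gene, 505 bp upstream with 167, and tatn-1, a tyrosine aminotransferase gene, 507 bp upstream with 311. F42F12.14 and selt-1.1, both 508 bp upstream, had 120 and 87.7. Just inside, and so not counted, were the epsin gene epn-1 at 497 bp upstream with 1511 and aexr-3 at 494 bp upstream with 170. Also inside were gpd-3 at 197 bp downstream with 91.5, gln-1 at 492 bp upstream with 84 and lsd-1 at 486 bp upstream with 138. With the 5′ end of every transcript in place of 1 per gene, the number of members was 706.

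Along X, members averaged 42 per Mb. The bin from 13 to 14 Mb held 66 and that from 12 to 13 Mb held 58, while that from 11 to 12 Mb held 24. The densest bin also had the most members beside tRNA genes, with 16. The central 50% of X held 368 (49.4%, 45.8 to 53%), the left 25% held 151 and the right 25% held 226. Median signals were 128 in the centre, 149 on the left and 151 on the right.

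The strongest members were spread along the chromosome. Neighbouring summits among all members lay a median of 10882 bp apart, and 84 gaps were under 1 kb. The 25 strongest lay a median of 525117 bp apart, from position 410251 to position 17544526 of a chromosome of 17718942 bp, and the shortest gap was 13737 bp. The bins from 5 to 6, 7 to 8 and 15 to 16 Mb held none of the 25, and no bin held more than 3.

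Members also formed runs. Summits at most 2 kb from the next formed 104 runs with 260 members. The longest runs had 7 summits each. One, between got-2.2, a transaminase gene, and W05H9.4, spanned 5425 bp with signals of 79.2 to 318. The other, between R03E9.2 and mdl-1, spanned 8256 bp with signals of 126 to 774. A run of 5 near C30E1.4 spanned 3207 bp and held that gene's strong peak of 1489. Some summits shared an interval: the 745 had 729 distinct intervals.

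By gene, 501 of the 2731 protein-coding genes of X were the nearest to at least 1 member, which is 18.3%. Of these, 362 had 1 member, 82 had 2 and 57 had 3 or more. The genes with the most were cab-1 and mdl-1, a Mad-like factor that pairs with Max-like proteins, with 8 each. All 8 of cab-1 lay downstream of its 5′ end and 7 of them in its introns. Of the 8 of mdl-1, 1 lay in its own introns and 4 lay in introns of abts-4. Next came scd-1 and sma-9 with 7 each, and ZK470.4, mxl-3, a Max-like factor, and nhr-3 with 6 each. Of those of ZK470.4, 0 lay in its own introns. Introns of ZK470.2 held 6 members with the same range of signal, 108 to 529. The signals of mxl-3 were even, from 183 to 270, while those of sma-9 ran from 102 to 1133.

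Nuclear hormone receptor genes were among the genes most often next to a member. Of the 23 on X, 13 (56.5%, 36.8 to 74.4%) were nearest to at least 1, with 29 members of median signal 154 between them, against 18.3% of all X genes and a median of 136. The strongest, at nhr-3, had scaled signals of 6.07 and 6.01 in replicates 1 and 2. The strongest at nhr-1 had 3.81 and 4.13, that at nhr-48 had 3.03 and 2.91, and that at nhr-17 had 2.88 and 2.07. These genes were long, with a median of 4483 bp against 2548 bp for all X genes, and the stretch of X nearest to their 5′ end had a median of 7464 bp against 5442 bp. Per 100 kb of that stretch there were 13.9 members, against 4.2 over all X genes. Whether length accounts for the share of genes was not tested.

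Genes of developmental timing and of the sex switch also had members. Of 5 heterochronic genes, which time larval stages, 3 (60%, 23.1 to 88.2%) were nearest to 1 or more, against 18.3% of all X genes. The stretch of X nearest to their 5′ ends was long, with a median of 16726 bp against 5442 bp, and per 100 kb of it there were 10.5 members against 4.2. The part of length in this share was not tested either. The strongest at daf-12, in intron 1 of the gene, had 2.45 and 2.5, that at lin-14, in intron 3, had 2.18 and 1.8, and that at hbl-1 had 0.738 and 0.615. Of 7 genes of the sex switch and dosage compensation 2 (28.6%, 8.22 to 64.1%) were nearest to a member, and xol-1 and fox-1, an RNA-binding X signal element that represses xol-1, had 2 members each. The stronger at fox-1, 4397 bp upstream, had 1.2 and 1.36, much weaker than the 14.2 and 15 at xol-1.

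Most other lists were at or below the share of all X genes. Neuropeptide and insulin-like genes had 5 of 34 (14.7%), led by ins-39 and by nlp-76, with 2.97 and 2.98. The nlp-76 member lay in an intron of nhr-17, beside a tRNA gene. Homeodomain, basic helix-loop-helix and T-box factors had 4 of 27 (14.8%), led by hlh-29 and ceh-36. Collagens had 3 of 27 (11.1%), led by col-185 and by col-181, whose member lay beside a tRNA gene. Ion channels and receptors had 5 of 53 (9.43%), and the share was 20.8% when members were given to the nearest gene body. Their leading members, lgc-21 and the potassium channel gene twk-21, lay beside tRNA genes, as did those of ser-2 and egl-36. The part of the tRNA genes in these lists was not tested.

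The remaining lists were small or had few members. Chemoreceptors had 2 of 33 (6.06%), srd-43, whose member lay beside a tRNA gene, and srg-64. Axon guidance and adhesion genes had 1 of 15, the FGF gene egl-17, whose member also lay beside a tRNA gene. Muscle structure genes had 2 of 8, the actin gene act-4 with 1.38 and 1.6 in intron 1 and unc-97 with 0.823 and 1.19. The ribosomal protein genes had 1 of 2, rpl-11.2. Vitellogenin and lipid-binding genes had 0 of 8, which allows a share of up to 37.5%. Nearness to a 5′ end does not show that a gene is regulated from the peak.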

How the data were processed

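ChIP-seq regions of 2 biological replicates of 1 group were analysed. Per the submitters' file index, the authors deposited lists of 30000 regions, called relative to a control and meant for irreproducible discovery rate analysis, for each replicate and for both pooled. They also deposited a pooled list of 5357 peaks thresholded by the optimal rule. For the aligner, the caller, their versions and the cutoff, the sources used here give nothing. The signal value in the deposited lists is the caller's and is not scaled between libraries. The deposited −log10 q value was used only to read the lists. Summit offsets are in bp from the region start, as the authors deposited them. Depth per sample is unknown, so intervals on shares of regions cover counting error only, and a count of 0 is given with the limit of 3 counts.

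Regions on ce11 were joined to the WBcel235 genome sequence and the Ensembl release 115 annotation with Python 3.11.15, numpy 2.4.6 and pandas 2.3.3. The older build was not used for positions. A replicate value was the signal of the overlapping region (at least 1 bp) with the nearest summit, divided by the replicate's median over peaks found in both. Motifs and 6-base sequences were counted on both strands in 101 bp around the summit. Tiles of the same length gave the share over X and the autosomes. Log2 ratios of 6-base sequences have a pseudocount of 0.5, and 6-base sequences had to be in at least 3% of windows. Classification, nearest-gene, matching and motif routines were tested on simulated data against direct searches. There were 0 unused per-sample columns.

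Named were the 25 strongest members, the 5 weakest, farthest, nearest to the window edge and most different between replicates in each direction, the 8 genes with most members, and up to 4 genes per list or noncoding class. Members, lists and motifs were chosen with earlier results of these data known. Regions at 2 summits of 1 interval, and neighbouring members, share sequence and reads and are not independent. P-values were not computed, because 1 group of 2 replicates allows no test of a difference. Alternatives changed the promoter window, the replicate left out, the overlap and scaling, the list's stronger 50%, the motif window and the gene assignment.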

Additional observations from a re-analysis of the deposited data

How the results depend on the processing

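Of 73 alternatives for 32 results, 46 stayed within the spread or the 1.5-fold range and 24 moved, while 3 reversed. The cause was not tested. The reversals all concerned the median signal of members over that of autosomal peaks outside promoters and exons, 1.01: it was 0.964 with a window of 300 bp upstream to 100 bp downstream, 0.982 without the 25 strongest members and 0.973 without peaks near a tRNA gene, the last 2 alternatives being chosen after seeing the data. Taking the 25 strongest from the members alone could only lower this ratio, so that reversal carries no weight. The ratio was 1 with a window of 1000 bp upstream to 500 bp downstream or with each interval once. It was 1.02 without either replicate, so no order of these sets holds. The ratio to X promoter peaks, 0.839, stayed below 1, at 0.757 with the narrow window, 0.798 without peaks near a tRNA gene, and 0.846 to 0.894 without 1 replicate. With the wide window, 35.6% of members were in introns and 63.7% beyond 2 kb, and with the narrow window 48.8% were beyond 2 kb. The stronger 50% of the list held 320 members, with 43.4% in the central 50% of X and 23.1% near a tRNA gene. With an overlap of at least 50% of the peak, 71% of members were at a top region of both replicates. With 100 bp on each side of the summit, shares rose to 7.25% for AGGTCA, 8.46% for AGTGCA and for GCGNAGG, 14.5% for TGATAA, 16% for GAGAGAG, 10.1% for GGTTCGA, 10.7% for CACGTG, 5.37% for GTAAACA and 3.09% for TGACTCA. By nearest gene body, ion channels and receptors had 20.8%. No paired analysis was possible because there is only 1 group. Values at weak peaks are limited by a depth that is unknown.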
